A study of Mus musculus with 15 samples.

Results

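Msx1, Msx2, Pax9, Lhx6, Lhx8 and Osr2 encode 6 transcription factors of the mesenchyme of the developing tooth. They were chosen by name and followed through the culture of mouse dental mesenchymal cells (mDMCs), and all 6 of 6 had 1 row each among the 12089 transcripts of the deposited RNA-seq table. The question was whether these factors were lost at the same rate once the cells left the tooth germ.

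mDMCs were single cells released with trypsin from the molar mesenchyme of E14.5 embryos of ICR mice, an outbred strain. They were sequenced freshly isolated (0 h, 3 libraries) and after culture in medium with fetal bovine serum for 12 h (2 libraries), 24 h (3), 36 h (3) and 48 h (3), beside 1 library of undissociated dental mesenchymal tissue. All cells were thus of 1 strain and 1 medium, and neither a culture without serum nor a second tissue library was analysed here. The labels do not say whether replicates came from separate dissections, so the p-values measure only the spread between these libraries, which may be technical.

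Before birth the odontogenic instruction passes from the dental epithelium to the underlying mesenchyme, and these factors are part of the network that holds it there. Msx1 and Pax9 act together upstream of Bmp4, and mouse teeth stop at the bud stage when either is missing. Lhx6 and Lhx8 are needed jointly for the molar mesenchyme, Msx2 overlaps with Msx1, and Osr2 restrains the same pathway on the lingual side of the tooth germ.

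The deposited values are expression scores, whole numbers that had been brought to one distribution in every library (median 721, largest score 127101), so depth is unknown and the score of one gene cannot be read against that of another. Changes are given as log2 fold changes of score + 1 from limma over the 14 cell libraries, with the standard error (SE), and a change was called at a Benjamini-Hochberg adjusted p below 0.05 over 12079 transcripts. In bulk RNA, fewer cells of a type and less RNA per cell cannot be told apart. Markers of other cells moved with culture in the same libraries. The summed score of 8 endothelial markers lay between 9228 and 10902 at 0 h and between 493 and 861 at 48 h (8 of 8 lower, with Cldn5 at 0 in every library from 24 h on). That of 7 blood and macrophage markers lay between 31689 and 46202 at 0 h and between 339 and 353 at 48 h (7 of 7 lower). Most of the latter sum at 0 h was haemoglobin, with means of 17101 for Hbb-bt and 20245 for Hba-a1. The white-cell and macrophage markers in it fell less, Ptprc from 311 to 194, Csf1r from 428 to 76.7 and Adgre1 from 81.0 to 39.7. The sum of 10 epithelial markers was 17589 in replicate 1 of 0 h, against 2245 and 2101 in the other 0 h libraries, and 400 to 1342 at 48 h (6 of 10 lower). Nerve and glia (3 markers), muscle (4), and bone and odontoblast markers (6) summed to 276 to 851, 128 to 710 and 25224 to 28777 at 0 h, and to 534 to 1840, 555 to 1327 and 18287 to 19769 at 48 h. By limma, 1 of these 3 nerve and glia markers was lower and 2 were higher at 48 h, 0 of 4 muscle markers were lower and 1 was higher, and 3 of 6 bone and odontoblast markers were lower and 1 was higher. The bone and odontoblast sum was mostly Col1a1, with a mean of 22414 at 0 h and no call. Within it Alpl fell from 2095 to 46.3 and Ibsp from 1406 to 273, Sp7 was lower, and Spp1 rose from 287 to 1429. The 8 mesenchyme markers, none of them at 0 in any group, summed to between 346909 and 366124 at 0 h and to between 232149 and 283039 at 48 h (3 lower, 2 higher and 3 not called). Col1a2 and Col3a1 held the largest score, 127101, in every 0 h library and weigh most in this sum at 0 h. Pdgfra fell from a mean of 16448 to 2546, Ngfr from 1900 to 20 and Col3a1 from 127101 to 43959, whereas Vim and Thy1 were higher. Beside these marker counts, 34.0% of all transcripts tested were lower and 37.1% higher at 48 h. The part of these shifts in the results below was not tested.

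In the table each factor is represented by 1 protein-coding transcript (coordinates of GRCm38). The annotation lists 2 transcripts each for Msx1 and Msx2, 3 for Pax9, 9 for Lhx6 and 5 each for Lhx8 and Osr2. Whether a score is that of the gene or only of the named transcript is not stated in the sources used here. Msx1 (ENSMUST00000063116) lies at chr5:37820485-37824583 on the minus strand and has 2 exons. Its paralogue Msx2 (ENSMUST00000021922) lies at chr13:53466884-53473074 on the minus strand, also with 2 exons. Pax9 (ENSMUST00000153250) occupies chr12:56691767-56712707 on the plus strand with 5 exons. The LIM homeobox genes Lhx6 (ENSMUST00000112961, chr2:36081953-36104060) and Lhx8 (ENSMUST00000177846, chr3:154306294-154330659) each have 9 exons on the minus strand. Osr2 (ENSMUST00000022952) lies at chr15:35296098-35303305 on the plus strand and has 4 exons. Pax9 overlaps Gm15524 and Slc25a21 on the opposite strand and Lhx6 overlaps Gm27953 on its own strand, and none of these 3 had a row in the table.

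Close relatives can exchange reads when they are nearly identical, so the transcripts of the paralogues were compared base by base. The longest run shared by the Msx1 and Msx2 transcripts had 22 bases and lay in the coding part of both, and no window of 25 bases was shared by the pair. It is shown as the longest stretch in which these paralogues are identical, in capitals throughout since every base matches.
Msx1 and Msx2 shared run: TGGAGCGCAAGTTCCGCCAGAA
Lhx6 and Lhx8 shared at most 14 bases in a row, and again no window of 25 bases. Only exact matches were compared, and whether reads were exchanged between paralogues was not tested.

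Upstream sequences from RefSeq (GRCm38.p6) were found for 5 of the 6 factors, under 7 start sites, and not for Osr2. Msx1 and Lhx6 are shown, as 2 factors that fell by different amounts and whose start site lies at or within 2 bases of the start of the tabled transcript. Each line gives the 250 bases before the start site, 5′ to 3′ on the gene's strand. Capitals mark matches on either strand to the homeodomain cores TAATTG or TAATTA, to the CCAAT box, to the GC box written GGGCGG and to the TATA box written TATAAA.
Msx1 upstream, chr5:37824586-37824835, minus strand: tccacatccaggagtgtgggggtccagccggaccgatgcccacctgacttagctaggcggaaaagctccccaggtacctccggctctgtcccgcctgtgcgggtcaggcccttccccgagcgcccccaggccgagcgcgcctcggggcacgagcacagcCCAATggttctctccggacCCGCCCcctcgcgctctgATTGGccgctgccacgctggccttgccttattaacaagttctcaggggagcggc
Lhx6 upstream, chr2:36104061-36104310, minus strand: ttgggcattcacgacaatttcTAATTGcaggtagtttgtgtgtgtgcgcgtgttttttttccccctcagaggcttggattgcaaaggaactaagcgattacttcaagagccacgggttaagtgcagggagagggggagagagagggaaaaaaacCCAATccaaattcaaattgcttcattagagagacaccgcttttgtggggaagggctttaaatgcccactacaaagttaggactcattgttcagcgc
The Msx1 stretch held CCAAT at 91 and, on the other strand, at 54 bases before the start site, with a GC box between them at 72. The Lhx6 stretch held TAATTG at 229 and CCAAT at 96 bases before the start site and no GC box. Among 32544 mouse promoter windows of 300 bases, 37.36% held the CCAAT box, 35.88% the GC box, 13.57% the TATA box, 8.01% the core TAATTG and 5.29% the core TAATTA, and the matches are given as a description only.

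Msx1, a homeobox factor of the dental mesenchyme from the bud stage on, had scores of 5030, 5205 and 5473 in the 0 h libraries, 4338 and 4373 after 12 h, and 3355, 3165 and 3545 after 24 h. The 36 h libraries held 3693, 3730 and 3238, the 48 h libraries 3238, 3770 and 3545, and the tissue 3882. Every one of the 11 cultured libraries lay below every 0 h library, and the 24, 36 and 48 h libraries overlapped. For this factor and those below, the share of all transcripts with such a separation was not computed. Msx1 was lower at 48 h by a log2 fold change of −0.58 (SE 0.08, limma adjusted p = 3.312e-05), with 67.2% of the 0 h mean left. Its fall came in 2 steps, −0.26 at 12 h (SE 0.09, limma adjusted p = 0.024) and a further −0.38 from 12 to 24 h (SE 0.09, limma adjusted p = 0.02393). Neither step was firm: the first lost its call in 4 of 22 alternatives (without replicate 3 of 0 h, without either 12 h library, or when only the compared times were fitted, adjusted p up to 0.08806), and the second in 4 of 22 (without either 12 h library, without replicate 2 of 24 h, or in the same fit of 2 times, adjusted p up to 0.1457). After 24 h no interval was called, with −0.01 (95% interval −0.19 to 0.16) from 36 to 48 h.

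Msx2, the paralogue that shares much of the expression of Msx1 in tooth and skull, took another course. Its scores were 69, 148 and 163 at 0 h, 276 and 342 after 12 h, and 151, 198 and 265 after 24 h. The 36 h libraries held 90, 92 and 72, the 48 h libraries 123, 208 and 210, and the tissue 123. Both 12 h libraries lay above every 0 h library, and the ranges of all later times overlapped that of 0 h. Msx2 rose 2.58-fold at 12 h (log2 1.37, SE 0.36, limma adjusted p = 0.005528), a call that held in all 22 alternatives. It fell from 24 to 36 h by a log2 fold change of −1.23 (SE 0.32, limma adjusted p = 0.01914), a call lost without replicate 2 or 3 of 24 h or replicate 1 or 3 of 36 h (adjusted p 0.05228 to 0.08349). At 36 h its change from 0 h was −0.49 (limma adjusted p = 0.188), and without replicate 1 of 0 h, the library with the high epithelial sum and the lowest Msx2 score of its group, it was −0.88 and called lower (limma adjusted p = 0.01253), whereas without replicate 3 of 0 h it was −0.26 (limma adjusted p = 0.5104). At 24 h the change was 0.74 (limma adjusted p = 0.05529), which was called higher in 5 of 22 alternatives and moved between 0.36 without replicate 1 of 0 h (limma adjusted p = 0.262) and 0.97 without replicate 3 of 0 h (limma adjusted p = 0.02517). At 48 h it stood 0.56 above 0 h on the log2 scale (95% interval −0.13 to 1.25, limma adjusted p = 0.1343), which was called only without replicate 1 of 48 h (0.81, limma adjusted p = 0.04763) and was 0.17 without replicate 1 of 0 h.

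Pax9, the paired-box partner of Msx1 upstream of Bmp4, had scores of 3850, 4049 and 5959 at 0 h, 2177 and 1525 after 12 h, and 903, 1130 and 1301 after 24 h. The 36 h libraries held 769, 739 and 694, those of 48 h held 619, 1056 and 1023, and the tissue held 3463. Cultured libraries were all below the lowest 0 h library, the 12 h libraries were all above the later ones, and the 24 and 48 h libraries overlapped. The log2 fold change of Pax9 from 0 h was −1.31 after 12 h (SE 0.25, limma adjusted p = 0.000642). It reached −2.04 after 24 h, −2.62 after 36 h and then −2.37 after 48 h (SE 0.22, limma adjusted p = 8.639e-07), leaving 40.1% of the 0 h mean at 12 h and 19.5% at 48 h. It was still falling during culture: the mean of 36 and 48 h was lower than that of 12 and 24 h by a log2 fold change of −0.82 (SE 0.17, limma adjusted p = 0.001649), although no single interval after 12 h passed (−0.73 with adjusted p 0.09464 from 12 to 24 h, and −0.58 with adjusted p 0.08484 from 24 to 36 h, both by limma). Both intervals passed without replicate 1 of 48 h (limma adjusted p = 0.04501 and 0.03982), and the second also when only its 2 times were fitted (limma adjusted p = 0.02345). From 12 to 24 h the change was −0.47 without replicate 1 and −0.99 without replicate 2 of 12 h.

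Lhx6, a LIM homeobox factor of the neural crest mesenchyme of the jaws, had scores of 3675, 3537 and 4933 at 0 h, 1950 and 1868 after 12 h, and 1663, 1592 and 1668 after 24 h. Scores were 1384, 1321 and 1283 in the 36 h libraries, 1268, 1272 and 1437 in the 48 h libraries, and 2667 in the tissue. The libraries of 0, 12 and 24 h formed separate, descending ranges, and those of 36 and 48 h overlapped below them. Lhx6 changed by −1.07 on the log2 scale at 12 h (SE 0.12, limma adjusted p = 9.944e-06) and by −1.60 at 48 h (SE 0.11, limma adjusted p = 4.628e-08), leaving 47.2% and 32.7% of the 0 h mean. Late culture was below early culture by a log2 fold change of −0.42 (SE 0.08, limma adjusted p = 0.001232).

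Lhx8, its partner in the molar mesenchyme, had scores of 3304, 3391 and 3945 at 0 h, 2647 and 3106 after 12 h, and 2617, 3157 and 3227 after 24 h. Libraries of 36 h held 2523, 2599 and 2590, those of 48 h held 2463, 3058 and 2885, and the tissue 3227. All 11 cultured libraries were below the 0 h libraries, and the cultured times overlapped one another except that each 36 h library was below each 12 and 24 h library. Lhx8 was lower by a log2 fold change of −0.46 at 36 h (SE 0.11, limma adjusted p = 0.002174, called in all 22 alternatives) and −0.34 at 48 h (SE 0.11, limma adjusted p = 0.0133), with 79.0% of the 0 h mean left. The 48 h call was lost without replicate 3 of 0 h (−0.26, adjusted p 0.05838) or without replicate 1 of 48 h (−0.25, adjusted p 0.06171). At 12 h the change of −0.30 passed narrowly (SE 0.12, limma adjusted p = 0.04906) and lost its call in 12 of 22 alternatives, with −0.19 without replicate 1 and −0.42 without replicate 2 of 12 h, and at 24 h −0.24 did not pass (95% interval −0.48 to −0.01, limma adjusted p = 0.06552). The 24 h change was called lower in 4 of 22 alternatives (replicate block, trimmed-mean scaling, without replicate 3 of 24 h or replicate 1 of 48 h, adjusted p 0.02058 to 0.04891), and was −0.15 without replicate 1 of 24 h.

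Osr2, a zinc-finger factor that restrains tooth formation, had scores of 700, 900 and 1413 at 0 h, 261 and 132 after 12 h, and 95, 130 and 164 after 24 h. The scores at 36 h were 140, 140 and 130, those at 48 h were 121, 140 and 116, and the tissue held 988. Every cultured library was below every 0 h library, and from 12 h on the ranges overlapped. Osr2 had the largest fall of the 6, a log2 fold change of −2.37 at 12 h (SE 0.32, limma adjusted p = 3.786e-05) and −2.93 at 48 h (SE 0.28, limma adjusted p = 1.05e-06), which left 19.6% and 12.5% of the 0 h mean. No later interval was called, and late culture differed from early culture by −0.23 (95% interval −0.69 to 0.23, limma adjusted p = 0.399).

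**Figure D1:**
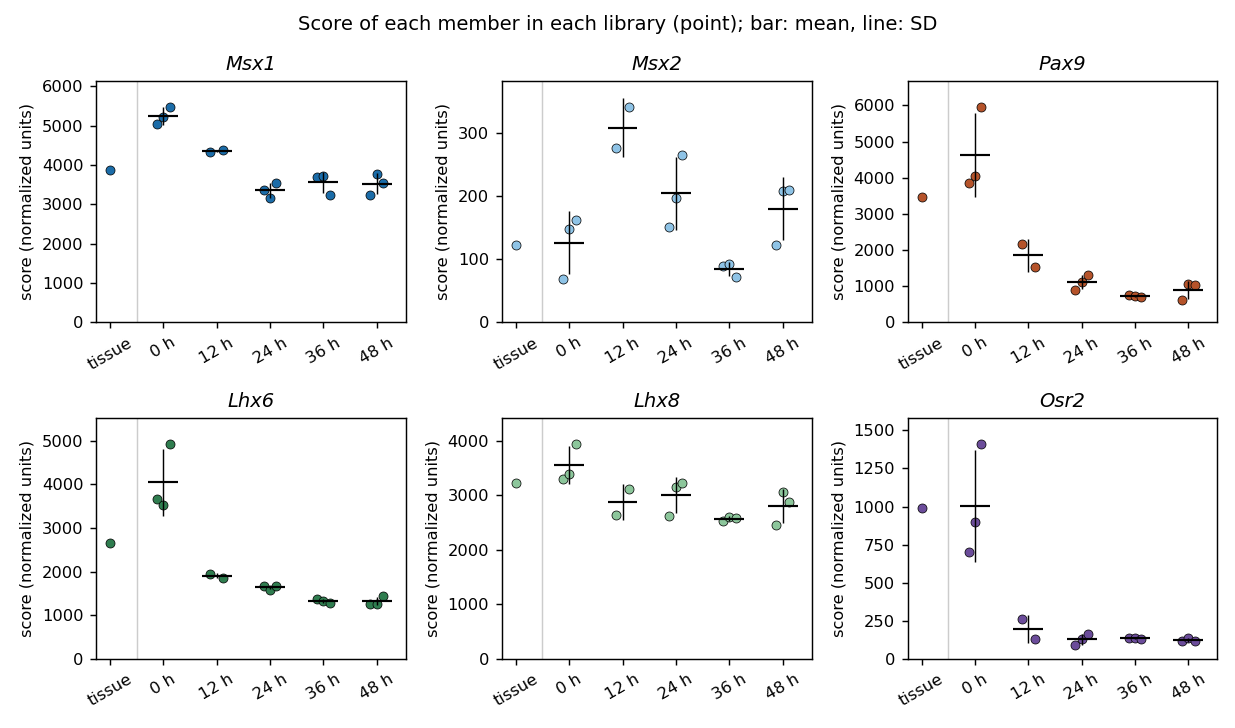
Score of each factor in every library (points), with the mean (bar) and SD (line) of groups of 2 or 3; the x axis gives the tissue and the time in culture, the y axis the score from 0, scaled per gene. The 11 cultured libraries lie below the 3 of 0 h for Msx1, Pax9, Lhx6, Lhx8 and Osr2, whereas Msx2 peaks at 276 and 342 at 12 h. The share of all transcripts with such a separation was not computed, and 34.0% were called lower at 48 h by limma.

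Replicate 3 of 0 h had the highest score of its group for all 6 factors, for example 1413 for Osr2 against 700 and 900, so the size of each fall depends on it. Without that library the log2 fold change at 48 h stayed called for Msx1, Pax9, Lhx6 and Osr2, and was lost for Lhx8 as given above.

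Counted together, 5 of the 6 factors were lower and 1 was higher at 12 h, where 28.3% of all 12079 transcripts were lower and 29.9% higher. At 24 h 4 were lower (31.8% of all transcripts), at 36 h 5 (34.0%) and at 48 h 5 (34.0%), and the factors not called lower were Msx2 at each of these times and Lhx8 at 24 h. Without replicate 1 of 0 h all 6 were lower at 36 h, Msx2 included. The count of 5 lower at 12 h fell to 3 without replicate 3 of 0 h, and also when only the compared times were fitted. The median log2 fold change of the 6 at 48 h was −1.09, against 0.03 over all transcripts tested. The 4 comparisons share their 0 h libraries, so they are not independent of each other.

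**Figure D2:**
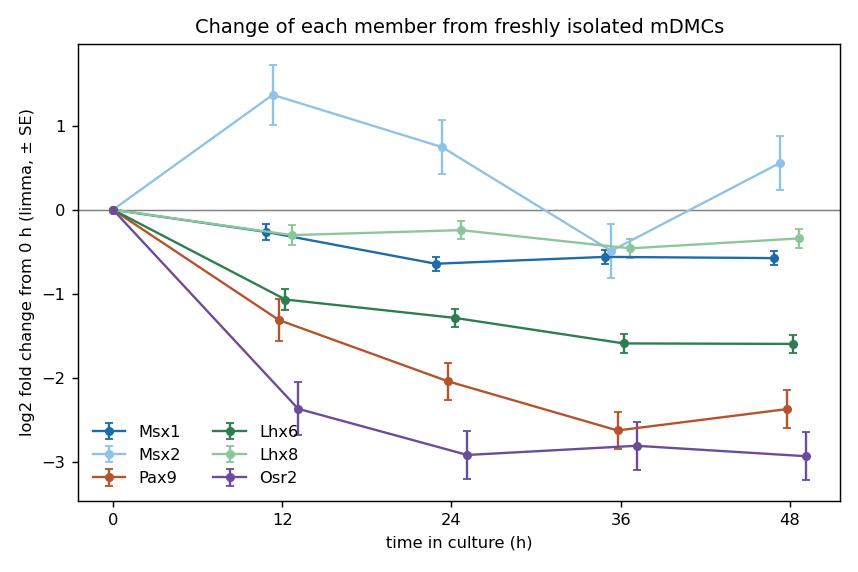
log2 fold change from 0 h (y axis, limma, bars are 1 SE) against time in culture in hours (x axis) for the 6 factors, shifted slightly sideways for legibility. Osr2 reaches −2.37 by 12 h, Pax9 goes on falling to −2.62 at 36 h, Msx1 and Lhx8 stay above −0.7, and Msx2 crosses zero.

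Of the log2 change seen at 48 h, 88.5% was present at 12 h for Lhx8, 80.8% for Osr2, 66.9% for Lhx6, 55.4% for Pax9 and 46.0% for Msx1. This order is not firm, since without replicate 1 of 12 h the shares were 54.8% for Lhx8, 97.4% for Osr2, 68.9% for Lhx6, 66.2% for Pax9 and 45% for Msx1, and without replicate 2 of 12 h they were 122.3%, 64.1%, 65.0%, 44.6% and 47.0%. From 12 to 24 h 1 of 6 factors was lower (Msx1, where 3.67% of all transcripts were), from 24 to 36 h 1 of 6 (Msx2, 9.64%), and from 36 to 48 h 0 of 6 (limma, 0.0248% of all transcripts lower). In the last interval 1 of 6 had an unadjusted limma p below 0.05, beside 1617 of all 12079 transcripts. That 1 was Msx2, with 1.05 (95% interval 0.36 to 1.74, limma adjusted p = 0.1965) and no overlap between its 36 and 48 h libraries. The contrast of late (36 and 48 h) with early culture (12 and 24 h), which uses no 0 h library, called 3 of 6 lower, Pax9, Lhx6 and Msx2 (−1.02, SE 0.24, limma adjusted p = 0.00395), where 24.3% of all transcripts were lower. These 3 calls held in all 22 alternatives, although for Msx2 and Pax9 the late and early libraries overlapped.

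**Figure D3:**
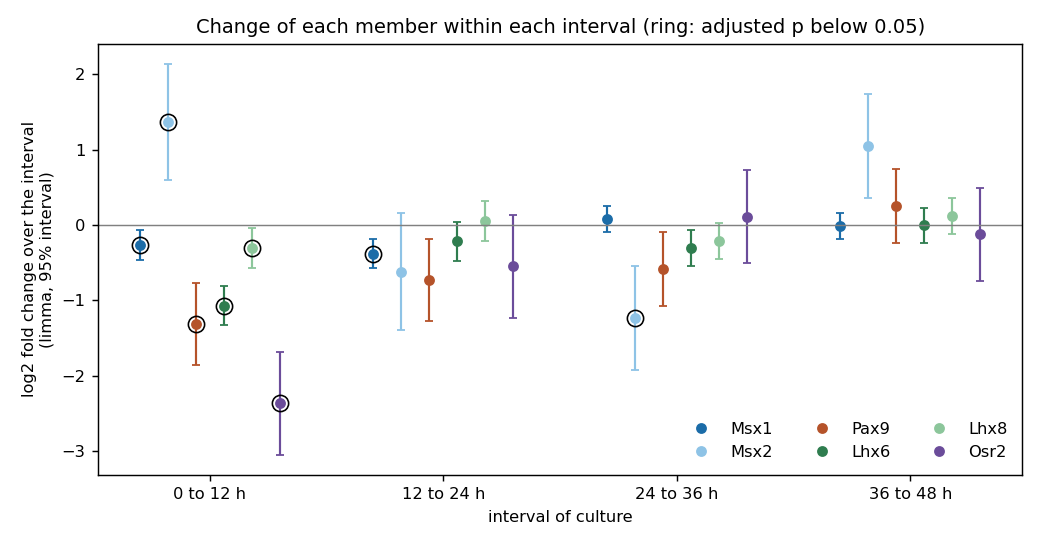
log2 fold change within each interval of culture (x axis) for each factor, with its 95% interval from limma (y axis); rings mark an adjusted p below 0.05. All 6 factors are ringed from 0 to 12 h, only Msx1 from 12 to 24 h, only Msx2 from 24 to 36 h, and none from 36 to 48 h.

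Whether 2 factors changed by different amounts was tested directly, from the difference of their log2 scores within each library. Over 15 pairs the 11 cultured libraries were set against the 3 of 0 h, and over the same 15 pairs the 6 late against the 5 early cultures, each by an exact two-sided permutation test, with p-values adjusted over all 30. The smallest p these designs allow is 0.00549 and 0.00433. Between cultured and 0 h libraries 12 of 15 pairs differed. These pairs come from 6 genes and share the same 3 libraries of 0 h, so they are not independent. Among all transcripts 34.0% were lower and 37.1% higher at 48 h by limma. The share of all pairs of transcripts that differ or do not overlap was not computed, for either contrast. The counts are therefore not shown to be particular to these factors.

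Osr2 fell more than Lhx6 by 1.38 on the log2 scale, more than Msx1 by 2.26 and more than Lhx8 by 2.45 (exact permutation p = 0.00549, adjusted 0.015 for each). Pax9 fell more than Msx1 by 1.62 and more than Lhx8 by 1.82 (exact permutation p = 0.00549, adjusted 0.015). Lhx6 fell more than Msx1 by 0.88 and more than its partner Lhx8 by 1.07 (exact permutation p = 0.00549, adjusted 0.015). In each of these 7 pairs the cultured and 0 h libraries did not overlap. Pax9 fell more than Lhx6 by 0.74 (exact permutation p = 0.011, adjusted 0.0275). Osr2 fell more than Pax9 by 0.63, the weakest of the 12 (exact permutation p = 0.0275, adjusted 0.0485), and this was lost in 12 of the 13 alternatives that keep every 0 h library.

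Msx2 separated from Osr2 by 3.26, from Pax9 by 2.63 and from Lhx6 by 1.88 (exact permutation p = 0.00549, adjusted 0.015). The other 3 pairs did not pass. The log2 difference Msx1 − Lhx8 was 0.37 ± 0.20 (SD, n = 11) in cultured and 0.57 ± 0.08 (n = 3) in 0 h libraries, which overlapped (exact permutation p = 0.11, adjusted 0.143). For the paralogues, Msx1 − Msx2 was 4.45 ± 0.67 (n = 11) against 5.45 ± 0.62 (n = 3, exact permutation p = 0.0549, adjusted 0.0824), and Msx2 − Lhx8 was −4.08 ± 0.64 against −4.89 ± 0.59 (exact permutation p = 0.0879, adjusted 0.12). Without replicate 1 of 0 h these 2 differences between cultured and 0 h libraries came to only −0.65 and 0.47. With 11 and 3 libraries these values do not show that the members of such a pair moved alike.

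Between late and early culture 5 of 15 pairs differed. Pax9 fell further than Msx1 by 0.67 and further than Lhx8 by 0.61 (exact permutation p = 0.013, adjusted 0.0278). It also fell further than Osr2 by 0.58 (exact permutation p = 0.0216, adjusted 0.0406), the reverse of their order against 0 h. Lhx6 fell further than Msx1 by 0.32, without overlap (exact permutation p = 0.00433, adjusted 0.015), and Msx2 further than Msx1 by 0.88 (exact permutation p = 0.0216, adjusted 0.0406). Except for Lhx6 with Msx1, each of these 5 was lost in 8 or 10 of the 13 alternatives that keep every 0 h library, among them the removal of either 12 h library or of any 36 h library.

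**Figure D4:**
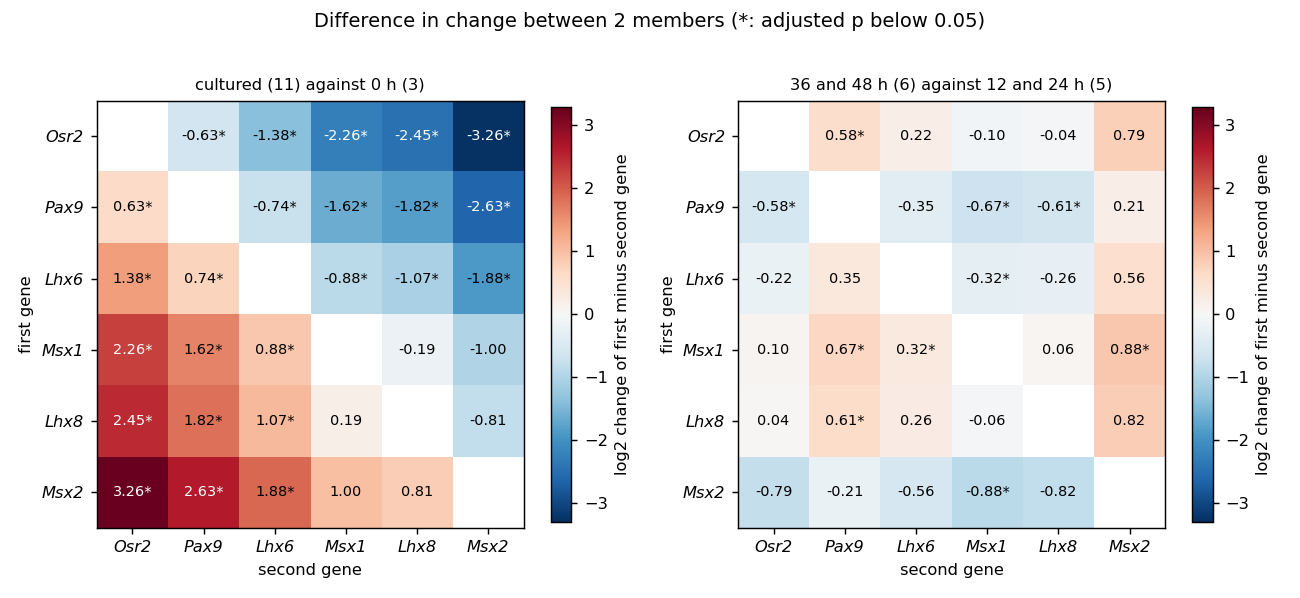
Difference in log2 change between a first (y axis) and a second factor (x axis), for cultured against 0 h (left) and late against early culture (right); colour and number give the first minus the second, and an asterisk an adjusted p below 0.05. On the left Osr2, Pax9 and Lhx6 are set apart from Msx1, Lhx8 and Msx2, and on the right Pax9 stands 0.67 below Msx1.

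The tissue library served as a reference before dissociation and has no replicate. Its values are given as a description and were not tested. It lay below all 3 libraries of 0 h for Msx1, Pax9, Lhx6 and Lhx8, by log2 differences from the 0 h mean of −0.43, −0.39, −0.59 and −0.13. For Msx2 and Osr2 it lay within the 0 h range, with differences of 0.05 and 0.04. The marker sums of the tissue differed from those of 0 h too: 3847 for muscle, 46006 for bone and odontoblast and 13330 for endothelium, each above the 0 h range given above, and 8628 for epithelium, within it. Their part in the tissue values was not tested. For Pax9, Lhx6 and Osr2 the tissue was above every cultured library, whereas for Msx1 it was below both 12 h libraries and for Lhx8 it equalled the highest 24 h library.

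Transcripts with the course most like that of each factor were listed by Pearson's r over the same 14 cell libraries, as a description in which the shared step from 0 h weighs heavily. Pax9 was followed most closely by Six2 (r = 0.99), a homeobox factor, then by Amer1 (0.99) and Pcdh18 (0.99). The mean score of Six2 was 1680 at 0 h, 945 after 12 h and 522 after 48 h. Lhx6 was nearest to Fmnl3 (0.99), Sema5a (0.99) and BC005561 (0.99), and Osr2 to Smad5 (0.99), an intracellular carrier of BMP signals, Vps13b (0.99) and Igsf10 (0.99). The likeness was of shape and not of size, since the log2 fold change at 48 h was −4.43 for Sema5a and −1.46 for Smad5. Msx1 was nearest to Glt8d2 (0.97), Nedd4 (0.97) and Ift140 (0.97). For Lhx8 the values were lower, with Ubald2 and Cbln1 at 0.92 and Nlgn1 at 0.91. For Msx2 the nearest were Prrx2 (0.90), a homeobox factor of craniofacial mesenchyme, ENSMUST00000107842 (0.89, not matched to a gene) and Zbtb2 (0.89). Prrx2 had mean scores of 2155 at 0 h, 3467 after 12 h and 2527 after 48 h, and of these 3 times it was, like Msx2, highest at 12 h. Among the 6 themselves r was 0.97 for Pax9 with Lhx6 and 0.95 for Lhx6 with Osr2, and between −0.14 and 0.28 for Msx2 with each of the others. Within the 11 cultured libraries, where the step from 0 h is absent, r was 0.86 for Pax9 with Msx2, 0.86 for Pax9 with Lhx6 and 0.07 for Lhx8 with Osr2.

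The factors were set beside 3 groups of genes of the tooth mesenchyme. Of 30 other odontogenic transcription factors 26 were tested, and 17 were lower, 0 higher and 9 not called at 48 h (limma, where 34.0% of all transcripts were lower and 37.1% higher), with a median log2 fold change of −1.05. At 12 h 10 were lower and 3 higher, beside 28.3% and 29.9% of all transcripts. Gli1, a transcription factor and target of hedgehog signalling, fell from a score of 1715 ± 151 to 1.7 ± 0.6 (SD, n = 3 each, log2 −9.35 on the score + 1 scale). Lef1, which carries Wnt signals in the nucleus, fell from 760 ± 363 to 104 ± 19 (−2.78), and Tfap2b from 2923 ± 1476 to 504 ± 167 (−2.48). Dlx3 (−4.06), Alx4 (−2.72), Runx2 (−2.09) and Twist2 (−1.59) were also lower. The factors of highest mean score without a call were Prrx1, with 43938 ± 5665 and 33372 ± 2630 (limma adjusted p = 0.1633), and Dlx1, with 4097 ± 566 and 3359 ± 1361 (limma adjusted p = 0.1758).

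Among 12 paralogues and LIM-domain cofactors 7 were tested, of which 5 were lower, 1 higher and 1 not called at 48 h (34.0% of all transcripts were lower and 37.1% higher). When 1 ppm of the summed scores was required in all 14 libraries, 2 were lower and 0 higher by limma, since genes that are low in 1 group then leave the test. Ldb1, the cofactor that bridges LIM homeodomain proteins, fell from 2747 ± 99 to 1882 ± 196 (log2 −0.55) and Ldb2 from 296 ± 29 to 29.7 ± 6.5 (−3.29). Lmo4 (−0.46), Lmo3 (−4.25) and Lmo2 (−4.63), LIM-only proteins that bind the same cofactors, were lower too. For Lmo3 the scores were 158 ± 36 at 0 h and 16.7 ± 18.1 at 48 h, there from 0 to 36, so the size of its change depends on the score of 0. Lmo2 is also a gene of blood and endothelium, whose markers fell in these libraries as given above. Lhx9, a relative of Lhx6 and Lhx8, rose from 6.3 ± 1.2 to 238 ± 60 (limma adjusted p = 3.514e-08), and Osr1, the paralogue of Osr2, stood at 787 ± 119 and 841 ± 113 (limma adjusted p = 0.6432).

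Of 28 signals and targets around Msx1 and Pax9 26 were tested, and 13 were lower, 9 higher and 4 not called at 48 h (again beside 34.0% and 37.1% of all transcripts), with a median log2 fold change of −0.34. Fgf3, a mesenchymal growth factor of the tooth, fell from 307 ± 184 to 1.7 ± 1.5 (log2 −6.92) and Bmp7 from 240 ± 96 to 2.0 ± 2.6 (−6.65). Ptch1, the hedgehog receptor and target, fell from 3255 ± 887 to 155 ± 16 (−4.34). Sostdc1, an inhibitor of BMP and Wnt signals (−3.51), Sfrp2, a Wnt antagonist (−2.87), and Ednra, the endothelin receptor of neural crest cells (−2.50), were lower as well. Fgf7 rose from 190 ± 28 to 2936 ± 945 (3.89) and Fst, which binds activins, from 687 ± 208 to 3610 ± 42 (2.44). Bmp4, named here after its values were seen because it is the best known target of Msx1 and Pax9, rose by 1.61. Id1, a target of BMP signals, had 2529 ± 1044 and 1985 ± 105 (limma adjusted p = 0.3562), and Bmpr2, a BMP receptor, 3334 ± 1252 and 2597 ± 15 (limma adjusted p = 0.3342).

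**Figure D5:**
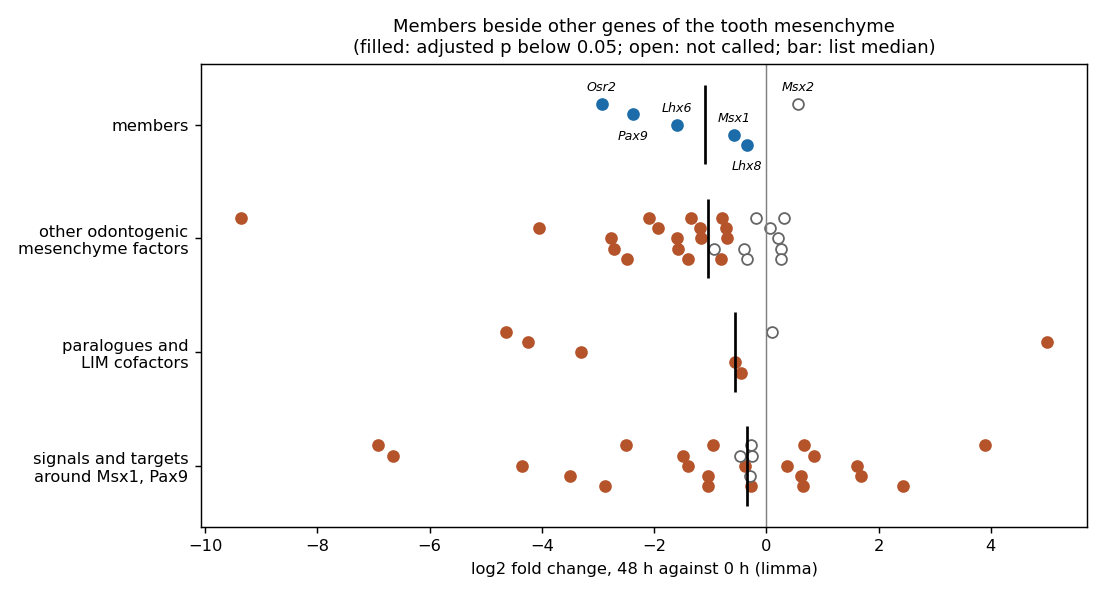
log2 fold change at 48 h against 0 h (x axis, limma) of each of the 6 factors (top row) and of the 26, 7 and 26 tested genes of the other groups; filled points passed an adjusted p of 0.05, open points did not, and bars give medians. The medians run from −1.09 for the 6 factors to −0.34 for signals and targets, and Gli1 lies farthest left at −9.35.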

How the data were processed

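RNA-seq of mDMCs (14 libraries) and dental mesenchymal tissue (1) was analysed from 1 table. After adaptor trimming, the authors mapped reads with bowtie to transcripts of mm10, and RSEM (version 1.1.21 in the submitters' processing notes) estimated the expression. The deposited values are whole-number scores, named cpm by the submitters, but library totals of 21357605 to 21365980, at most 0.0392% apart, exceed that unit. The libraries share an identical score at 71.88% of ranks. The step that made them alike is not given in the sources used here, and a change in total RNA cannot be seen in such values. No counts or depth were given, so no counting interval is stated, and 14 to 31 transcripts per library are listed at 0. Transcript identifiers were matched to GRCm38 (GENCODE), with 11973 matched and 116 not.

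Scores were analysed as log2(score + 1), which understates changes of low genes. limma 3.58.1 (R 4.3.3) fitted 1 mean per time point to the 14 cell libraries with eBayes and an intensity trend. Tests were two-sided with Benjamini-Hochberg adjustment over 12079 transcripts, those reaching 1 ppm of the summed scores in 2 or more libraries. Counts were foreseen in the study's methods (DESeq2), and were not used because the table holds none. In data simulated for 48 h against 0 h on 12020 genes, 87 of 100 genes changed 2-fold, 98 of 100 changed 4-fold and 7 of 11820 unchanged genes were called. In the real data far more changed, with 34.0% of transcripts lower and 37.1% higher at 48 h. The simulated noise was normal and independent, low genes were not changed, and the scores were not brought to one distribution. These rates therefore need not hold for the real data. Pairs of factors were compared by exact permutation over libraries (Python 3.11.15, scipy 1.17.1, numpy 2.4.6, pandas 2.3.3; plots with matplotlib 3.10.9). Groups came from the sample labels. The factors, gene lists and tests were chosen with earlier results of these data known. Genes named were the 6 factors, the 3 transcripts most correlated with each, and per list up to 8 called genes with the largest change at 48 h and the 2 uncalled ones of highest mean score. The result of 1 gene that this rule names is not reported here. Alternatives were pseudocounts of 0.1 and 32, no filter, a filter of 1 ppm in all 14 libraries, trimmed-mean scaling, eBayes without trend, a fit of only the compared times, the replicate number as a block, and each library left out in turn.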

Additional observations from a re-analysis of the deposited data

How the results depend on the processing

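The falls of Msx1, Pax9, Lhx6 and Osr2 at 24, 36 and 48 h kept direction and call in all 22 alternatives. Fitting only the compared times left 3 factors lower at 12 h, 0 lower from 12 to 24 h and 3 lower from 24 to 36 h. Leaving out 1 library in turn gave 3 to 5 lower at 12 h, 0 to 1 higher at 24 h, 5 to 6 lower at 36 h, 0 to 1 higher at 48 h, 0 to 2 lower from 12 to 24 h and 0 to 2 lower from 24 to 36 h; a 12 h group of 1 library is assumed to vary like the others. The 48 h change ranged from 0.17 to 0.81 for Msx2 and from −0.41 to −0.25 for Lhx8. Changes near zero that took both signs were Lhx8 from 12 to 24 h (−0.056 to 0.17), Osr2 from 24 to 36 h (−0.10 to 0.30), Msx1 (−0.080 to 0.044) and Lhx6 (−0.065 to 0.025) from 36 to 48 h, Osr2 in late against early culture (−0.47 to 0.017), and in the same contrast the pairs Msx1 − Osr2 (−0.054 to 0.22), Lhx8 − Osr2 (−0.20 to 0.15) and Msx1 − Lhx8 (−0.027 to 0.15). Pairs that differed numbered 0 to 12 for cultured against 0 h and 0 to 7 for late against early culture. Both counts were 0 without replicate 2 or 3 of 0 h, where 78 divisions allow no p below 0.0256 and the p-values are adjusted together. Most of the lost pairs then stood at an adjusted permutation p of 0.0513, and for them these settings say nothing about stability. Pax9 − Lhx6 (0.0855 in both) and Pax9 − Osr2 (0.167 and 0.16) lay higher and lost support. Without replicate 1 of 0 h, with as many divisions, no pair changed its call. Of the paralogues and cofactors, 2 were lower and 0 higher with 1 ppm required in all 14 libraries, which tests fewer genes, and 3 were lower by the methods' rule (fold change over 2 and p under 0.05, unadjusted; 15.9% of all transcripts lower and 16.2% higher) under which 4 of 26 signals and targets were higher. Replicate numbers were not taken as pairs: 11 of 26 same-numbered pairs of libraries had r above 0.1 (−0.25 to 0.32), and 10 of 14 libraries correlated best with their own number, a hint from the data only. With the replicate number as a block, 1 factor was higher at 24 h (Msx2, 0.74, limma adjusted p = 0.01897) and Lhx8 passed at 24 h (adjusted p = 0.02058), and no other limma call of the 6 factors changed. Under the block 14 in place of 13 signals and targets were lower, the counts of the other lists stayed as they were, and the pairs were not tested under it. The cause of these differences was not tested.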
